A study of Mus musculus with 19 samples.

Results

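The genes described here encode 10 enzymes of glycolysis, namely Gpi1, Pfkl, Pfkp, Aldoa, Tpi1, Gapdh, Pgk1, Pgam1, Eno1 and Ldha, followed over 7 groups of mouse embryonic stem cell cultures and blastoids. They were chosen by name. All 10 were found among the 54352 gene symbols of both count tables, and all 10 passed the filter on low counts in every fit, which kept 11183 genes in 2D culture, 15121 in blastoids and 16304 in the joint fit.

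Polyadenylated RNA of 19 samples was sequenced after Smart-seq2, a full-length cDNA protocol that amplifies by PCR and carries no molecular identifiers. All groups, 2D and blastoid, are labelled TT2, a line of mouse embryonic stem cells that grows on a feeder layer of inactivated fibroblasts. One 2D group of 2 libraries was cultured for 48 h and then exposed for 6 h to pladienolide B (PlaB) at 20 nM, a splicing inhibitor whose target is the SF3B complex. The other 2D group of 2 libraries was left untreated, and the labels date both 54 h after seeding. The other 5 groups were blastoids, stem cell aggregates that resemble the blastocyst, grown in 3D microwells for 1, 2, 3, 4 or 5 days with 3 libraries each. The labels also list all blastoids as given PlaB at 20 nM for 6 h. They do not say whether this came before aggregation or before collection, and no untreated blastoids were analysed here. RNA of feeder cells is part of the 2D samples, and a line such as TT2 is 1 genetic background. The labels do not say whether replicates were separate cultures, and p-values therefore reflect the spread among these samples alone, which may be technical.

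Glycolysis splits glucose into pyruvate in the cytosol. The upper steps (Gpi1, Pfkl, Pfkp, Aldoa, Tpi1) prepare and cleave the sugar at the cost of ATP. The lower steps (Gapdh, Pgk1, Pgam1, Eno1) yield ATP and NADH, and lactate dehydrogenase (Ldha) turns pyruvate into lactate while restoring NAD+. Mouse embryonic stem cells and the blastocyst use this pathway strongly, and many of its genes are known targets of the hypoxia-inducible factor HIF1A and of MYC.

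The promoters of 4 of the enzymes are shown because they stand for the patterns described below. Tpi1 followed the common pattern most closely, Gapdh had the largest changes, and Pgk1 and Pfkp went their own way. Each sequence is the 250 bases before the start site in RefSeq (build GRCm38.p6), written 5′ to 3′ on the strand of the gene. They lie at chr6:124814159-124814408 (minus strand) for Tpi1, chr6:125165774-125166023 (minus strand) for Gapdh, chrX:106186850-106187099 (plus strand) for Pgk1 and chr13:6648772-6649021 (minus strand) for Pfkp. Capitals mark the letters ACGTG or GCGTG on either strand, the core of the site that HIF dimers are known to bind.
Tpi1: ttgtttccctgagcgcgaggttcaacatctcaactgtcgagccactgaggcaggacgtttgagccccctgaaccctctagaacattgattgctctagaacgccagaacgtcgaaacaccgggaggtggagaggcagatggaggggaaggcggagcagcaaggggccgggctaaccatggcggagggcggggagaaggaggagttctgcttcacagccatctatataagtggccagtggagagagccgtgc
Gapdh: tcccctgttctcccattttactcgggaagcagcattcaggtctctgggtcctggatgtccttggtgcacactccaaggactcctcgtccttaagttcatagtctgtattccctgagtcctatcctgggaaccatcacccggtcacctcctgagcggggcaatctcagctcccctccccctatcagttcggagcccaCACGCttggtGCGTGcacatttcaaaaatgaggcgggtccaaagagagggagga
Pgk1: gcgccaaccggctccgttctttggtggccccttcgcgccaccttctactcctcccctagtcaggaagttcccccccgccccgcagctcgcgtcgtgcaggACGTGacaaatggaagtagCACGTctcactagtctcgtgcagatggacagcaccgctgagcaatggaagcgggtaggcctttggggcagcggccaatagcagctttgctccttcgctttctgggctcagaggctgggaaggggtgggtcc
Pfkp: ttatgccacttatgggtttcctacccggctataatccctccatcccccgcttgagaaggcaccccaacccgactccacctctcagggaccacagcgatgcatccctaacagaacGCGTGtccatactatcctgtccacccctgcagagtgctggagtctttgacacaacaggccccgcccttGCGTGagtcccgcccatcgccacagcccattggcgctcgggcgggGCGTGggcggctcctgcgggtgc

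The Pgk1 window held ACGTG 150 and 131 bases before the start, as the first letter is counted. The Gapdh window held GCGTG at 54 and 44 bases, the Pfkp window at 136, 68 and 23 bases, and the Tpi1 window held neither. Start sites in RefSeq and in the GENCODE M21 transcripts used here differed by 0 to 244 bases (Eno1). For Tpi1 they differed by 138 bases, and its GENCODE gene reaches into the window shown. The Gapdh window lies within the GENCODE span of its gene. A window was found for 10 of 10 enzymes, and 8 of the 10 windows held ACGTG or GCGTG, compared with 38.6% of all 32851 RefSeq windows of this length. The sets are not alike: each enzyme entered with 1 window, the nearest to its GENCODE start, although Aldoa and Eno1 have 3 and Ldha 2. The shares of all windows count every RefSeq window, also several of the same gene. ACGTG occurred in 3 of 10 windows (16.6% of all windows), GCGTG in 6 of 10 (28.2%), and CACGTG, which contains ACGTG and is known as the E-box bound by MYC, in 0 of 10 (6.02%). Such letters describe a window and do not show that a factor binds there.

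Some features of the libraries differed between the groups and stand beside the results. The 2D libraries held 2515381 to 4118725 counts and the blastoid libraries 3684787 to 7607021. For each library, the median log2 deviation of the 10% of genes with the lowest GC content was subtracted from that of the 10% with the highest. This difference, called the GC index below, was 0.249 and 0.01 after PlaB and -1.37 and -1.14 in control cells. In blastoids it averaged 1.28, 0.164, -0.952, 0.654 and -0.338 on days 1 to 5. It was therefore high or low in many of the groups in which the enzymes were high or low. The enzymes' transcripts had 48.9% (Pfkp) to 57.4% (Eno1) GC, and Pfkp and Pgk1 (49.7%) had the lowest GC content of the 10. Fold changes are therefore also given after the trend on GC content was removed from each library. Day 3 replicate 3 stood apart from the other day 3 libraries, with 13.5% of its counts from mitochondrially encoded genes, against 5.50% and 4.71%, and a GC index of -1.56, against -0.572 and -0.726. The steps from day 2 to day 3 and from day 3 to day 4 are given with and without this library. The day 3 means, the test over all days and the correlations of profiles are given with it only. The 12 stem cell markers were detected in every library, and so were the 17 fibroblast markers in every 2D library, while 1 to 3 of them were at 0 in each blastoid library.

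The 10 enzymes together took 0.787% and 0.723% of all counts after PlaB and 0.233% and 0.297% in control cells. In blastoids they took 0.952% to 1.42% on day 1 and 0.532% to 0.694% on day 2. The share was 0.135% to 0.328% on day 3, 0.781% to 1.20% on day 4 and 0.501% to 0.927% on day 5. The course over days was thus high, low and high again, with the lowest level on day 3. Intervals from counting alone were narrow, for example 0.132% to 0.139% in day 3 replicate 3 (95% Wilson interval), and cover counting error only. Gapdh alone made up 50.9% to 59.5% of the enzymes' counts on day 1 and 12.4% to 23.8% on day 3.

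**Figure D1:**
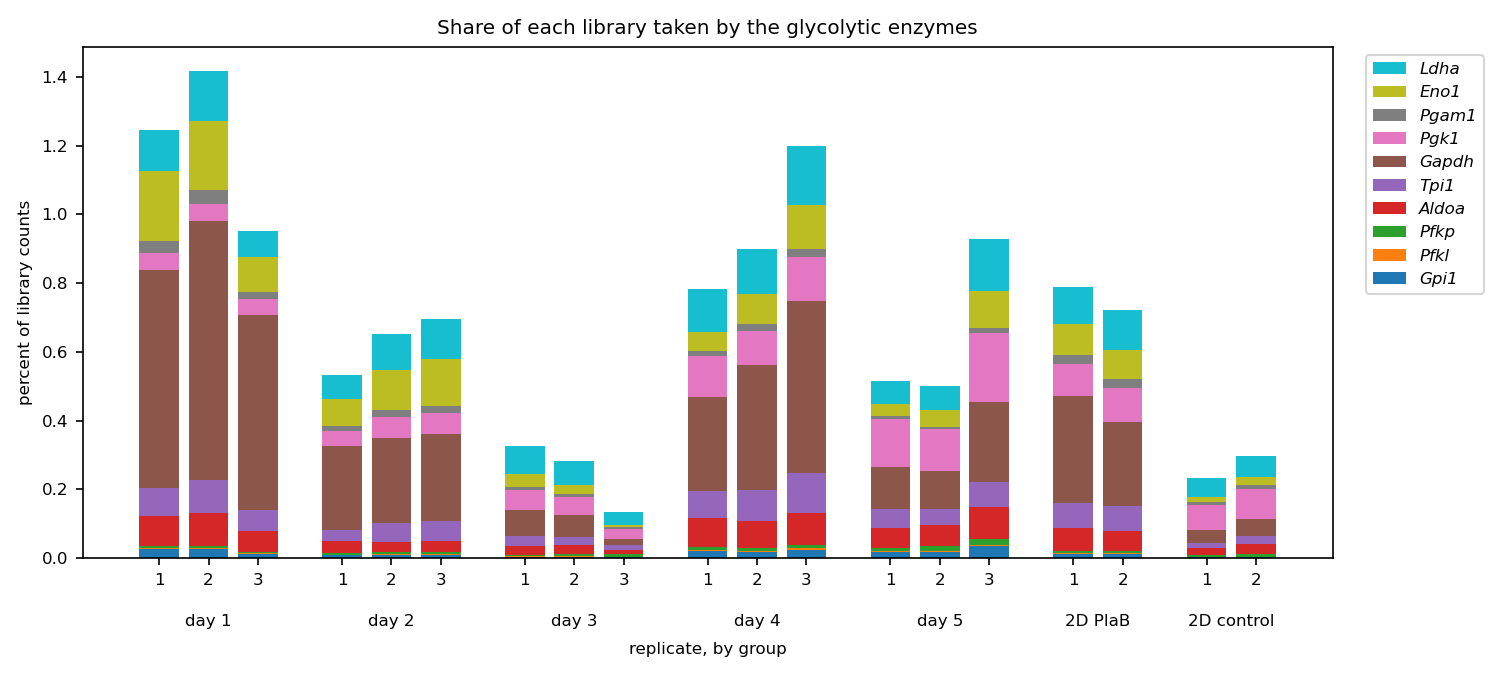
Percent of each library's counts taken by the 10 glycolytic enzymes, stacked by gene, for each replicate of blastoid days 1 to 5, PlaB-treated 2D cells and control 2D cells. The stacks are highest on average on day 1 (0.952% to 1.42%) and lowest on day 3 (0.135% to 0.328%) and in control cells (0.233% and 0.297%), and the Gapdh segment varies most.

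Compared per kilobase of transcript, the enzymes differed in level by orders of magnitude within a group. On day 5 the mean level was 1156 CPM per kb for Gapdh, 902 for Pgk1, 565 for Ldha and 488 for Aldoa, followed by Tpi1 (392), Eno1 (328), Gpi1 (91.1) and Pgam1 (69.6). The 2 phosphofructokinase subunits, which carry out the committed step, had the lowest levels, with 35.2 CPM per kb for the platelet type Pfkp and 6.22 for the liver type Pfkl. In control 2D cells Pgk1 came first with 459 CPM per kb, ahead of Ldha (338) and Gapdh (324). Pfkp had a higher mean per kilobase than Pfkl in each of the 7 groups, with the widest ratio in control cells (20.4 for Pfkp and 1.27 for Pfkl) and the narrowest on day 1 (11.5 for Pfkp and 7.79 for Pfkl). These levels carry no GC correction. Transcript GC was 48.88% for Pfkp and 57.05% for Pfkl, and the mean GC index was lowest in control cells (-1.255) and highest on day 1 (1.281). Pfkp also overlaps an antisense gene, as given below. The part of GC content and of this overlap in the ratio was not tested.

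The 2D comparison asked what 6 h of the splicing inhibitor did to the stem cell cultures. Of the 10 enzymes, 9 were higher in PlaB-treated cells and 1, Pfkp, was lower at an adjusted p under 0.05. Over all genes tested, 25.9% were called higher, 25.8% lower and 51.7% either way. The median log2 fold change was 1.69 over the enzymes and 0.00 over all genes. Levels below are given in CPM, counts scaled to a common library size by the TMM method over all 19 libraries, and fold changes are log2 values with their standard errors. In bulk samples, more RNA of a gene per cell and more cells that express it cannot be told apart.

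Of the upper steps, Gpi1, which turns glucose 6-phosphate into fructose 6-phosphate (chromosome 7, 34201330 to 34230336), had 149.5 and 146 CPM in PlaB cells and 29.6 and 46.7 CPM in control cells. Its log2 fold change was 1.96 ± 0.18 (adjusted p = 4.39e-11). Both PlaB libraries were above both control libraries. Pfkl had 25.9 and 23.3 CPM in PlaB cells and 4.59 and 4.86 CPM in control cells, which gave 2.37 ± 0.36 on the log2 scale (adjusted p = 1.1e-06). The other phosphofructokinase subunit, Pfkp, had 64.4 and 62.0 CPM in PlaB cells and 77.0 and 91.8 CPM in control cells, and its log2 fold change was -0.42 ± 0.18 (adjusted p = 0.0463). The libraries of the groups did not overlap for either gene, and the subunits stood in opposite directions. Aldoa, the aldolase that cleaves fructose 1,6-bisphosphate, had 708 and 619 CPM in PlaB cells and 214 and 294 CPM in control cells. Tpi1, which interconverts the triose phosphates that aldolase makes, had 792 and 821 CPM in PlaB cells and 153 and 251 CPM in control cells. Both rose, Aldoa by 1.39 ± 0.14 (adjusted p = 3.35e-10) and Tpi1 by 2.00 ± 0.16 (adjusted p = 3.95e-10) on the log2 scale.

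Of the lower steps, Gapdh, the glyceraldehyde 3-phosphate dehydrogenase often used as a reference gene (chromosome 6, 125161715 to 125166467), had 3399 and 2652 CPM in PlaB cells and 390.2 and 530.3 CPM in control cells. Its log2 fold change of 2.72 ± 0.15 was the highest of the 10 (adjusted p = 1.07e-14). Pgk1, the phosphoglycerate kinase of the first ATP-yielding step (chromosome X, 106187100 to 106203699), had 1008 and 1094 CPM in PlaB cells and 764 and 912 CPM in control cells. This was the smallest of the 9 increases, 0.33 ± 0.12 (adjusted p = 0.026). Pgam1, the phosphoglycerate mutase, had 274 and 287 CPM in PlaB cells and 89.7 and 119 CPM in control cells (1.42 ± 0.15, adjusted p = 4.61e-10). Eno1, the enolase, had 988 and 895 CPM in PlaB cells and 150.4 and 232 CPM in control cells (2.30 ± 0.15, adjusted p = 1.86e-12). Ldha had 1148 and 1298 CPM in PlaB cells and 576 and 649.5 CPM in control cells (0.99 ± 0.12, adjusted p = 2.25e-08). For all 10 enzymes the PlaB and control libraries did not overlap, but with 2 libraries per group this is a weak sign. How many of all genes also did not overlap was not counted.

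With the GC trend removed, 8 enzymes remained called, all higher in PlaB cells, and their log2 fold changes ran from 0.38 (Aldoa, adjusted p = 0.0172) to 1.75 (Gapdh, adjusted p = 1.47e-11). In that fit 2619 of all 11183 genes were called higher and 2486 lower. Pgk1 (0.26, adjusted p = 0.0769) and Pfkp (-0.40, adjusted p = 0.0549) were then not called. Eno1 (2.30 before and 1.23 after the correction), Pfkl (2.37 and 1.34) and Aldoa (1.39 and 0.38) moved most. The call of Pfkp was also lost with DESeq2 (adjusted p = 0.152), RLE size factors (0.0513) or the replicate block (0.0633), and without control replicate 2 (adjusted p = 0.272), PlaB replicate 1 (0.0764) or PlaB replicate 2 (0.164). That of Pgk1 was lost without control replicate 1 (log2 fold change 0.18, adjusted p = 0.396) or PlaB replicate 2 (adjusted p = 0.128), and with library totals (adjusted p = 0.0531) or no filter on low counts (0.104). Fibroblast markers rose as well: 13 of 16 tested were higher in PlaB cells and 0 lower, with a summed level of 7381 and 9646 CPM in PlaB cells and 5057 and 5897 CPM in control cells, and 0 of the 17 markers at 0 counts in any of these libraries. With the GC trend removed 9 of the 16 were higher. Lox, the largest part of the fibroblast sum, averaged 2280 CPM in PlaB cells and 2600 CPM in control cells. Of the 12 stem cell markers 1 was higher and 5 lower, with a summed level of 15521 and 15782 CPM in PlaB cells and 23487 and 21480 CPM in control cells. Dppa5a gave most of the stem cell sum, with means of 14400 CPM in PlaB cells and 20500 CPM in control cells. Mitochondrially encoded genes took 9.14% and 9.38% of the counts in PlaB cells and 5.74% and 6.18% in control cells. The part of these differences in the enzymes' increase was not tested.

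**Figure D2:**
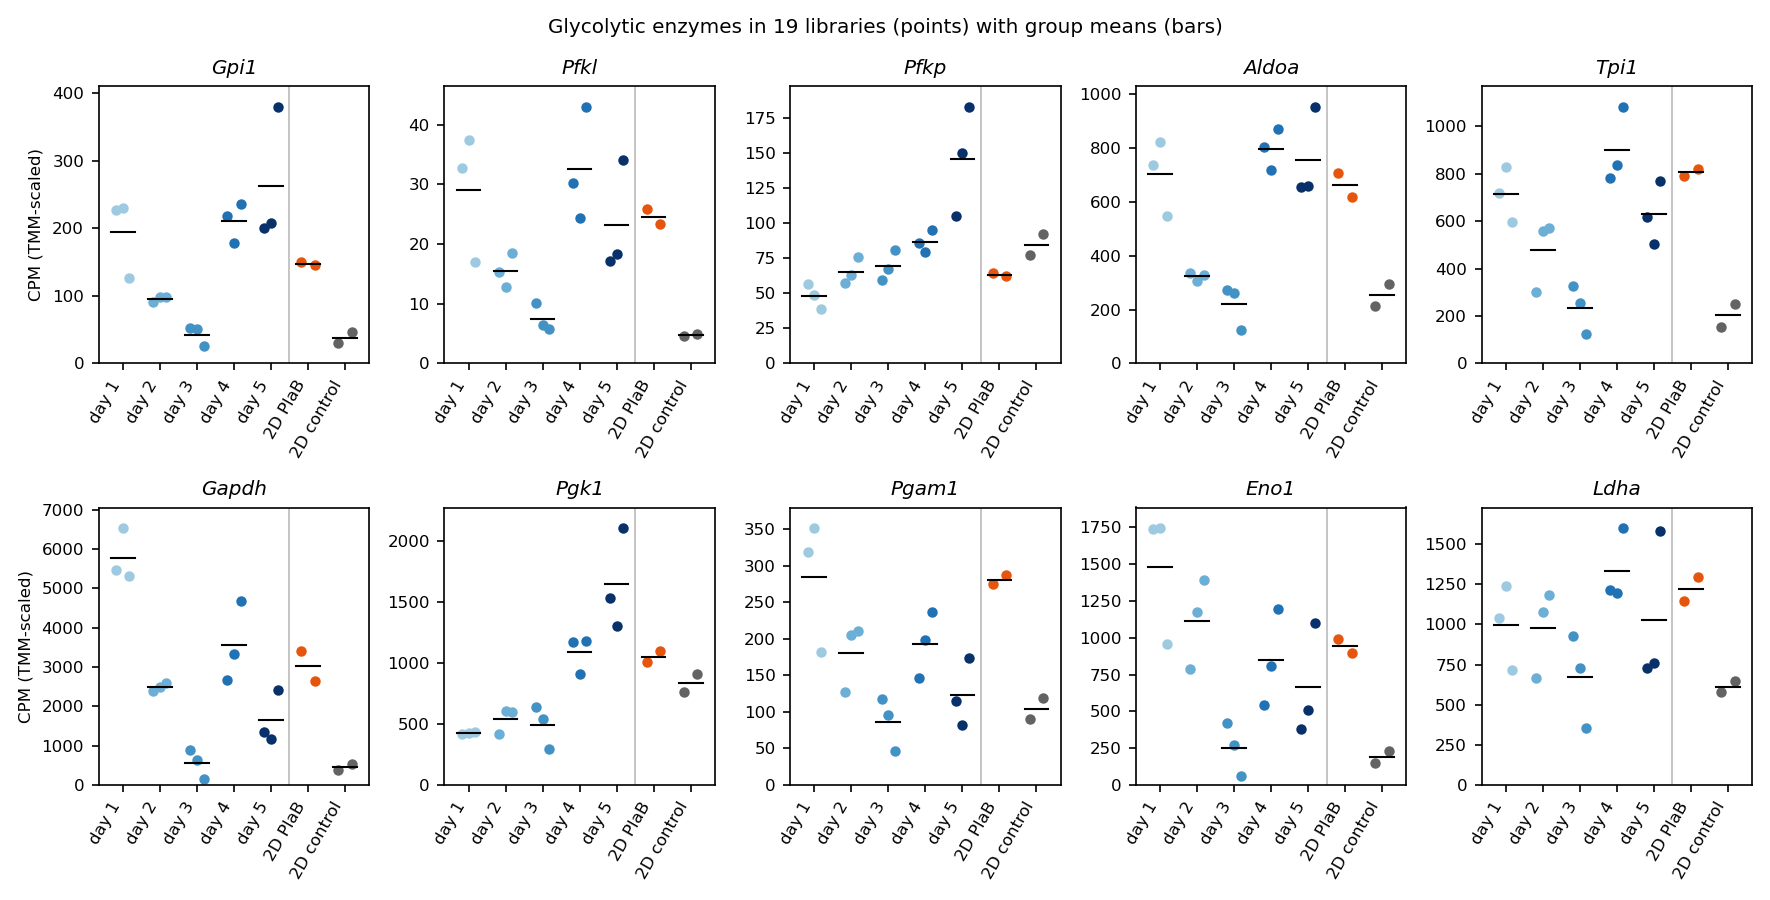
TMM-scaled CPM of each glycolytic enzyme in the 19 libraries (points) with group means (bars), for blastoid days 1 to 5, PlaB-treated 2D cells and control 2D cells, each panel with its own axis from 0. For Gapdh the PlaB libraries (3399 and 2652 CPM) sit above the control libraries (390.2 and 530.3 CPM), and over the days most enzymes dip on day 3 while Pfkp, Pgk1 and Gpi1 have their highest means on day 5.

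Day 1 blastoids were next compared with the PlaB-treated 2D cells. Culture form, time and feeder content differ together in this comparison and cannot be told apart. Of the 10 enzymes 1 was called, Pgk1, which was lower on day 1, while 38.9% of all genes were called either way, 17.0% lower and 21.9% higher. Pgk1 had 415, 422 and 435 CPM on day 1 and 1008 and 1094 CPM in PlaB-treated 2D cells. Its log2 fold change was -1.31 ± 0.28 (adjusted p = 0.000576) and -1.44 with the GC trend removed (adjusted p = 7.98e-05). No day 1 library reached the 2D libraries. Gapdh had 5468, 6535 and 5304 CPM on day 1 and 3399 and 2652 CPM in PlaB-treated 2D cells. Its libraries did not overlap either, but a log2 fold change of 0.93 ± 0.44 did not pass (adjusted p = 0.0968). How many of all genes did not overlap in this comparison was not counted. Without day 3 replicate 3, which enters the common estimate of spread, Gapdh passed (0.93, adjusted p = 0.00531). The other 8 enzymes had log2 fold changes between -0.40 (Pfkp) and 0.65 (Eno1). Aldoa was lower once the GC trend was removed (-0.59, adjusted p = 0.0374). In that fit 3022 of all 16304 genes were called higher and 3152 lower. Fibroblast markers summed to 450 to 747 CPM on day 1 and to 7381 and 9646 CPM in PlaB-treated 2D cells, and their part in these values was not tested.

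Over the 5 blastoid days, 9 of 10 enzymes changed when all days were tested together, and Ldha did not pass (adjusted p = 0.147). This compares with 68.0% of all genes, so changing over the days was common. The steps between neighbouring days show when the levels moved.

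Of the upper steps, Gpi1 had 227, 231 and 126.5 CPM on day 1, 90.9, 99 and 98.2 CPM on day 2, 51.8, 51.1 and 25.3 CPM on day 3, 218, 179 and 236 CPM on day 4, and 200.3, 208 and 380.4 CPM on day 5. The levels of day 1, day 2 and day 3 did not overlap, each lower than the one before, and day 4 lay above day 2 and day 3. Its highest mean was on day 5 (262.8 CPM, against 210.7 CPM on day 4). On days 1 to 5 Tpi1 averaged 714 ± 116, 477 ± 151, 235.5 ± 105, 899 ± 162 and 629.8 ± 135 CPM (SD, n = 3 each). Aldoa averaged 702 ± 141, 324 ± 15.4, 219 ± 83.6, 797 ± 75.7 and 756 ± 172 CPM on days 1 to 5, and Pfkl 29.0 ± 10.6, 15.5 ± 2.89, 7.43 ± 2.31, 32.6 ± 9.58 and 23.2 ± 9.45 CPM. Tpi1, Aldoa and Pfkl thus had their lowest mean on day 3 and their highest on day 4.

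Gapdh had the widest range. It had 5468, 6535 and 5304 CPM on day 1, 2398, 2499 and 2604 CPM on day 2, 882, 635 and 158 CPM on day 3, 2671, 3323 and 4679 CPM on day 4, and 1345, 1164 and 2418 CPM on day 5. Its day 1 mean was 12.5 times its mean in control 2D cells, the highest and the lowest of the 7 group means. Days 1, 2 and 3 did not overlap, and the day 4 level lay between those of day 1 and day 5. Eno1 had 1741, 1745 and 958 CPM on day 1, 784, 1174 and 1390 CPM on day 2, 419, 271 and 63.5 CPM on day 3, 541, 806.5 and 1193 CPM on day 4, and 383, 511 and 1100.0 CPM on day 5. The replicates of Eno1 lay far apart, and the day 3 libraries stood below all libraries of days 1, 2 and 4. Pgam1 averaged 284 ± 89.9, 181 ± 46.7, 86.7 ± 36.5, 193 ± 45.4 and 123.5 ± 46.2 CPM on days 1 to 5, and Ldha 997 ± 265, 977 ± 273, 671 ± 293, 1336 ± 229 and 1025 ± 483.5 CPM.

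Pgk1 and Pfkp followed another course. Pgk1 had 415, 422 and 435 CPM on day 1, 415, 603 and 595 CPM on day 2, 638, 539 and 292 CPM on day 3, 1174, 907 and 1180.0 CPM on day 4, and 1529, 1305 and 2103 CPM on day 5. All libraries of day 4 were above those of days 1 to 3, and all of day 5 above those of day 4. Pfkp had 56.4, 48.7 and 38.4 CPM on day 1, 56.9, 63.2 and 75.6 CPM on day 2, 59.4, 66.8 and 81.0 CPM on day 3, 85.8, 79.1 and 94.8 CPM on day 4, and 105, 149.7 and 183 CPM on day 5. Its group mean was higher on each later day, and day 5 lay above every earlier library.

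Between day 2 and day 1 few genes differed: 2 of 10 enzymes were lower on day 2 and 0 higher, and of all genes 5.27% were lower, 1.69% higher and 6.96% called either way. Gpi1 on day 2 stood at 0.501 times its day 1 level (adjusted p = 0.0377), and Aldoa at -1.10 ± 0.26 on the log2 scale (adjusted p = 0.0142). These calls lay near the threshold. Of all 15121 genes, 210 were called higher and 374 lower with the GC trend removed. With the GC trend removed 0 enzymes were called at an adjusted p under 0.05 (Gpi1 -0.75, adjusted p = 0.0589), and 0 were called when any single library of these 2 days was left out, except for day 1 replicate 3. In those 5 fits the log2 fold changes stayed between -1.02 and -0.87 for Gpi1 (adjusted p between 0.107 and 0.168) and between -1.12 and -0.98 for Aldoa (0.0545 to 0.0824). Without day 1 replicate 3 there were 3 calls, as Pfkl (-0.88 with all libraries) reached -1.17 (adjusted p = 0.0258). Gapdh, at -1.19 ± 0.41, did not pass (adjusted p = 0.0817) but did without day 3 replicate 3 (-1.18, adjusted p = 0.00192) or day 3 replicate 1 (-1.18, adjusted p = 0.0452). Of the trophectoderm markers 5 of 8 were lower on day 2 and 0 higher, with and without the GC correction, with a summed level of 96 to 176 CPM on day 2 and 308 to 476 CPM on day 1. The keratin Krt18 gave most of this sum, with means of 89.5 CPM on day 2 and 250 CPM on day 1. Cdx2 and Elf5, also on the list, had too few counts to be tested. The part of the trophectoderm markers in these values was not tested.

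Day 3 was lower than day 2 for 6 of 10 enzymes and higher for 0, compared with 13.5% of all genes called lower, 12.0% higher and 25.6% either way. The log2 fold change was -2.15 ± 0.42 for Gapdh (adjusted p = 0.00175) and -2.13 ± 0.53 for Eno1 (adjusted p = 0.00797). Gpi1 (-1.14), Pgam1 (-1.04) and Pfkl (-1.03) were lower as well, and Tpi1 stood at 0.501 times its day 2 level. Aldoa (-0.54), Ldha (-0.52), Pgk1 (-0.12) and Pfkp (0.11) did not pass. Without day 3 replicate 3 the call held for Gpi1 (-0.89, adjusted p = 0.0236), Gapdh (-1.71, adjusted p = 0.000511) and Eno1 (-1.68, adjusted p = 0.0357). Without that library Pfkl (adjusted p = 0.0932), Tpi1 (0.062) and Pgam1 (0.109) were not called, and the signs of Pgk1 (0.14) and Pfkp (-0.04), neither of them called, changed. Gpi1, Gapdh and Eno1 were also the 3 called enzymes with the GC trend removed (-0.77, -1.68 and -1.65) and without day 2 replicate 3. The GC correction left 1604 of all 15121 genes called higher and 1531 lower. Single calls were lost without day 2 replicate 1 (Pfkl, adjusted p = 0.0574), day 2 replicate 2 (Tpi1, 0.0916, and Pgam1, 0.0883) or day 3 replicate 2 (Pfkl, 0.107, and Pgam1, 0.0517). Of the trophectoderm markers 2 of 8 were higher on day 3 and 3 lower, with a summed level of 57.6 to 87.3 CPM on day 3 and 96 to 176 CPM on day 2, and their part was not tested.

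Day 4 was higher than day 3 for 9 of 10 enzymes and lower for 0, compared with 15.6% of all genes called higher, 12.3% lower and 27.9% either way. The median log2 fold change of the enzymes was 1.80, and that of all genes -0.04. Gapdh rose by 2.67 ± 0.43 (adjusted p = 0.00017), Gpi1 by 2.29 ± 0.30 (adjusted p = 1.98e-05) and Pfkl by 2.11 ± 0.34 (adjusted p = 0.000186). Tpi1 (1.92), Aldoa (1.85), Eno1 (1.75), Pgk1 (1.14), Pgam1 (1.14) and Ldha (0.99) rose as well, and Pfkp (0.31) did not pass. Without day 3 replicate 3, 6 enzymes were called, among them Gapdh (2.23), Gpi1 (2.03) and Pgk1 (0.88), while Pgam1 (adjusted p = 0.0556), Eno1 (0.0736) and Ldha (0.122) were not. The same 3 were not called without day 4 replicate 3 (adjusted p = 0.0716, 0.084 and 0.14). Ldha was also not called without day 3 replicate 2 (0.0734), day 4 replicate 1 (0.0566) or day 4 replicate 2 (0.0588), and Eno1 without day 3 replicate 2 (0.0545). The GC correction also left 6 calls, with Gapdh at 1.94, Gpi1 at 1.81, Tpi1 at 1.47, Pfkl at 1.28, Aldoa at 1.07 and Pgk1 at 1.06. Of all 15121 genes, it left 1393 called higher and 1377 lower. Trophectoderm markers changed at the same step: 6 of 8 tested were higher on day 4 and 0 lower, with a summed level of 920 to 999 CPM on day 4 and 57.6 to 87.3 CPM on day 3. With the GC trend removed 5 were higher and 1 lower. Krt18 alone averaged 568 CPM on day 4 and 24.8 CPM on day 3. Eomes averaged 3.54 CPM on day 4 and 5.51 CPM on day 3. Cdx2 (0.934 CPM on day 4) and Elf5 (0.78 CPM) had too few counts to be tested. Fibroblast markers were lower, 12 of 16 with 0 higher, and summed to 105 to 231 CPM on day 4 and 307 to 758 CPM on day 3. Their part in the enzymes' increase was not tested.

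Between day 5 and day 4, 1 enzyme was higher and 1 lower, where 14.1% of all genes were higher, 14.5% lower and 28.6% called either way. Pfkp rose by 0.78 ± 0.22 (adjusted p = 0.0122), and was not called without day 4 replicate 2 (adjusted p = 0.0638) or day 5 replicate 3 (0.0628). Gapdh was lower on day 5, by -1.09 ± 0.41 on the log2 scale, just past the threshold (adjusted p = 0.0495). This call was lost with the GC trend removed (-0.59, adjusted p = 0.218) and when any 1 of 11 of the 15 blastoid libraries was left out. With the GC trend removed 3 enzymes were higher on day 5 and 0 lower, namely Pfkp (0.79, adjusted p = 0.00787), Gpi1 (0.64, adjusted p = 0.0342, and 0.35 without the correction) and Pgk1 (0.68, adjusted p = 0.0435). In that fit 2254 of all 15121 genes were called higher and 1932 lower. Pgk1, at 0.63 ± 0.26 without the correction, did not pass (adjusted p = 0.081) but did without day 3 replicate 3 (0.62, adjusted p = 0.0156). Day 5 replicate 3 was higher than the other day 5 libraries for each of the 10 enzymes, and its GC index was 0.297, against -0.802 and -0.51.

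Over the whole course, day 5 against day 1, the pathway did not move one way. Pgk1 (2.02 ± 0.27, adjusted p = 6.11e-06) and Pfkp (1.67 ± 0.23, adjusted p = 6.92e-06) were higher on day 5, and Gapdh (-1.75 ± 0.41, adjusted p = 0.00147) and Pgam1 (-1.14 ± 0.33, adjusted p = 0.00668) were lower. These 4 of 10 compare with 51.0% of all genes called, 25.5% in each direction, and the median log2 fold change was -0.01 over the enzymes and -0.02 over all genes. The libraries of day 5 and day 1 did not overlap for these 4 genes and overlapped for the other 6. The share of all genes without such overlap was not computed. Removal of the GC trend left all 4 calls in place, with Pgk1 at 2.03, Pfkp at 1.62 and Pgam1 at -0.78 on the log2 scale, while Gapdh stood at 0.5 times its day 1 level after the correction (adjusted p = 0.023) and at 0.296 times before it. It added Gpi1 (0.93, adjusted p = 0.00154) and Aldoa (1.00, adjusted p = 0.000437), both higher on day 5. Of all 15121 genes, 3791 were called higher and 3678 lower after the correction. Eno1 (-1.10) did not pass (adjusted p = 0.0815), but did without day 1 replicate 3 (-1.38, adjusted p = 0.0447), day 3 replicate 3 (-1.10, adjusted p = 0.0397) or day 5 replicate 3 (-1.65, adjusted p = 0.0218).

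**Figure D3:**
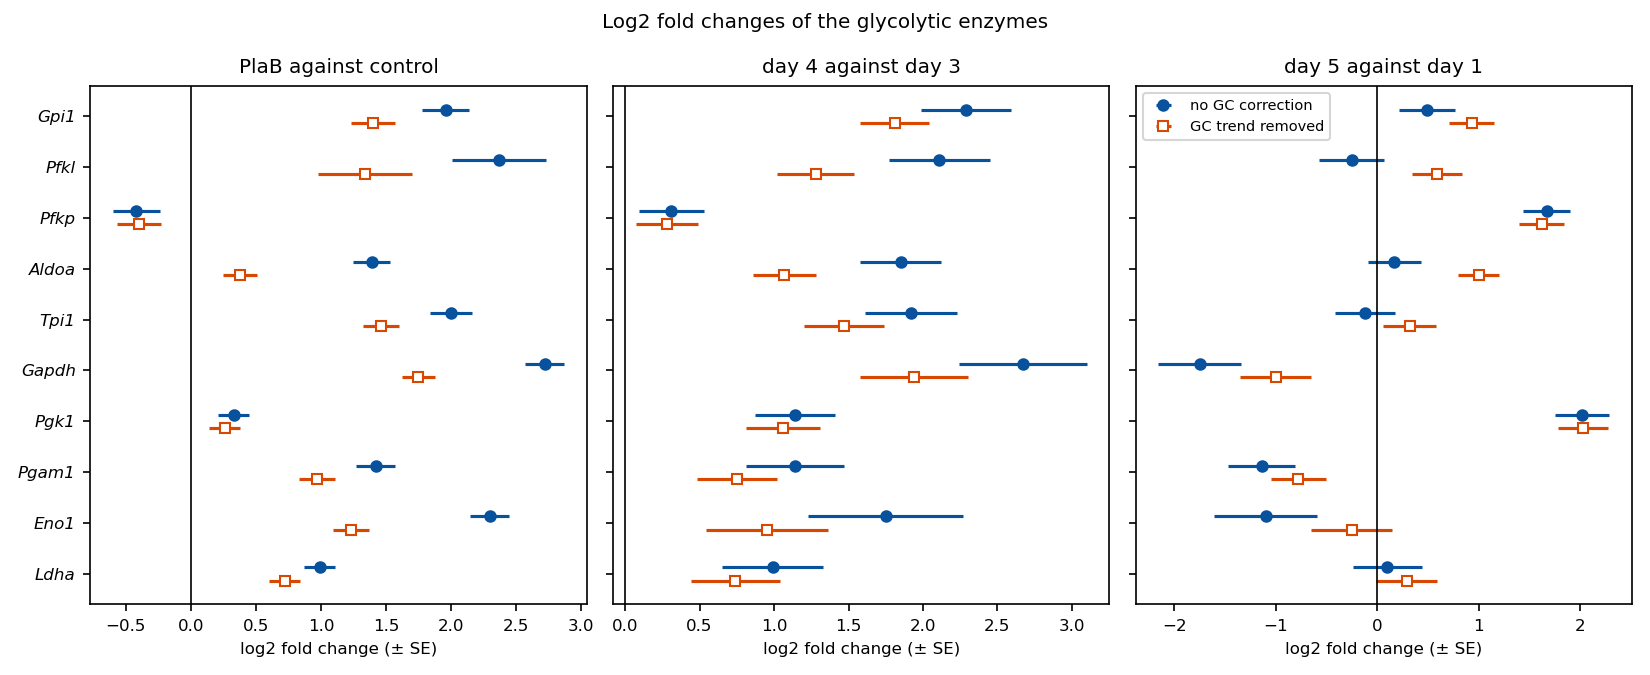
Log2 fold changes with standard errors of the 10 enzymes for PlaB against control, day 4 against day 3 and day 5 against day 1, without a GC correction (filled circles) and with the GC trend removed (open squares). The increase on day 4 shrinks with the correction (Gapdh 2.67 and 1.94) while the changes of Pgk1 (2.02 and 2.03) and Pfkp (1.67 and 1.62) on day 5 hardly move.

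The likeness of the enzymes' profiles was described by the Pearson correlation of log2 CPM with the mean profile of the 10, over the 19 libraries, which share depth and GC differences. Each enzyme is itself part of that mean, which raises its value. The correlation was 0.977 for Tpi1, 0.951 for Gpi1, 0.945 for Pfkl, 0.942 for Aldoa, 0.909 for Gapdh, 0.898 for Ldha, 0.895 for Eno1 and 0.821 for Pgam1. It was 0.472 for Pgk1 and 0.101 for Pfkp, and against the mean of the other 9 it was 0.970 for Tpi1, 0.388 for Pgk1 and 0.031 for Pfkp. The closest pairs were Gpi1 with Aldoa (0.962) and Gapdh with Eno1 (0.955), and Pfkp with Pgam1 was the most opposed (-0.353). Among 16304 genes, Bex3 (0.976), Ostf1 (0.959), Tcf25 (0.957), Pdlim1 (0.950) and Akip1 (0.947) were the genes outside the 10 most like the mean profile.

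Genes that feed the pathway or stand in for its members were followed in the same fits. Of 26 other glycolytic isozymes and phosphofructokinase regulators, 15 were tested in 2D, of which 8 were higher in PlaB cells and 2 lower. This stands beside 25.9% of all genes higher, 25.8% lower and 51.7% called either way. Hk2, the hexokinase of the first step, was lower in PlaB cells, with 42.3 and 50.6 CPM in PlaB cells and 119.8 and 116 CPM in control cells (log2 fold change -1.35 ± 0.18, adjusted p = 5.95e-08). Pkm, the pyruvate kinase, was higher (1.27 ± 0.14, adjusted p = 7.94e-10), but stood at 0.15 with the GC trend removed (adjusted p = 0.359). Ldhb, the other lactate dehydrogenase subunit, was higher by 1.88 ± 0.14 (adjusted p = 4.21e-13) and stayed at 1.40 after the correction. The muscle phosphofructokinase Pfkm (2.04 ± 0.45) and the aldolase Aldoc (1.91 ± 0.42) were also higher, while Hk1 (0.66, adjusted p = 0.176) and Eno2 (0.33, adjusted p = 0.655) did not pass. Eno1b, a near-identical copy of Eno1, rose by 2.94 ± 0.22 (adjusted p = 1.65e-13), and its 9764 counts over all libraries, beside 89465 for Eno1, may have been split from Eno1 by the counting.

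Transport genes split in 2D. Bsg, the chaperone of the lactate transporters, had 928.5 and 837 CPM in PlaB cells and 54.5 and 98.0 CPM in control cells. It rose by 3.54 ± 0.20 (adjusted p = 2.25e-10). The glucose transporter Slc2a1 was lower in PlaB cells, with 88.1 and 92.1 CPM in PlaB cells and 156 and 154 CPM in control cells (-0.78 ± 0.15, adjusted p = 5.32e-05). Slc2a3, a second glucose transporter, was slightly higher (0.33 ± 0.13, adjusted p = 0.0286), and Slc16a1, a lactate transporter, was lower (-0.50 ± 0.16, adjusted p = 0.00895) but stood at -0.07 with the GC trend removed (adjusted p = 0.717). Slc16a3 did not pass (-0.51, adjusted p = 0.542).

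Beyond pyruvate, 13 of 18 tested genes of the citric acid cycle were higher in PlaB cells and 0 lower, among them Idh3g (1.90 ± 0.16) and Idh2 (2.28 ± 0.20), both isocitrate dehydrogenase genes. Over all genes 25.9% were higher, 25.8% lower and 51.7% called either way. Of 13 genes of pyruvate entry into mitochondria 1 was higher (Pdhb, 0.33) and 3 lower (Pdk1 -0.64, Dlat -0.56 and Dld -0.36). Of 9 pentose phosphate genes 5 were higher, led by Taldo1, the transaldolase (2.01 ± 0.16), and of 5 serine branch genes 4 were higher, led by Phgdh, the first enzyme of serine synthesis (2.74 ± 0.26). Of 8 regulators 3 were higher (Mycn 1.22, Myc 1.31 and Arnt 0.96) and 3 lower, among them Hif1a (-0.93 ± 0.14, adjusted p = 4.57e-07). Of 8 gluconeogenesis and glycogen genes 2 were higher and 1 lower, and of 2 glycerol branch genes 1 was lower (Gpd2, -0.66). After the GC correction, 14 of the 18 citric acid cycle genes, 5 of the 9 pentose phosphate genes and 3 of the 5 serine branch genes were higher and 0 of each lower, and of the isozymes 6 were higher and 3 lower. Of all 11183 genes, 2619 were then called higher and 2486 lower. The correction turned the balance of the pyruvate entry genes to 3 higher and 1 lower, as Dlat (-0.38, adjusted p = 0.0774) and Dld (0.16, adjusted p = 0.355) lost their calls, and left 3 regulators higher and 5 lower. The calls among pyruvate entry genes (4 of 13) and gluconeogenesis and glycogen genes (3 of 8) were below the share of all genes, that of the pentose phosphate genes (5 of 9) was near it, and no difference between lists was tested.

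On day 5 of blastoid culture 2 glucose transporters and a hexokinase were higher than on day 1. Slc2a1 had 487, 378 and 416 CPM on day 5 and 85.1, 102 and 49.9 CPM on day 1, and rose by 2.50 ± 0.26 on the log2 scale (adjusted p = 3.68e-07). Slc2a3 had 1052, 1228 and 1439 CPM on day 5 and 324, 459 and 357 CPM on day 1 (1.77 ± 0.23, adjusted p = 4.13e-06). Hk2 had 97.4, 130.4 and 92.8 CPM on day 5 and 40.3, 38.1 and 37.2 CPM on day 1 (1.54 ± 0.23, adjusted p = 1.6e-05). Its mean was already 119.8 CPM on day 3 and 118.5 CPM on day 4, while Slc2a1 and Slc2a3 had their highest means on day 5. No day 5 library of these 3 genes overlapped a day 1 library. The share of all genes without such overlap was not computed, and 51.0% of all genes were called either way. Other genes of these steps did not follow: the low-abundance glucose transporter Slc2a8 averaged 1.74 ± 1.41 CPM on day 5 and 5.86 ± 2.93 CPM on day 1 (-1.66 ± 0.56, adjusted p = 0.0182, and -0.35 with the GC trend removed, adjusted p = 0.57), and Hk1 did not pass (0.45, adjusted p = 0.26) unless the GC trend was removed (1.26, adjusted p = 0.00117). Pfkfb3, the kinase that makes the activator of phosphofructokinase, had 22.8, 22.7 and 20.5 CPM on day 5 and 2.28, 1.65 and 2.36 CPM on day 1 (3.42 ± 0.32, adjusted p = 9.17e-08). Tigar, a phosphatase that removes that activator, had 22.0, 13.3 and 23.9 CPM on day 5 and 127, 101 and 143 CPM on day 1 (-2.58 ± 0.26, adjusted p = 2.02e-07). The kinase thus rose and the phosphatase fell, each outside the range of the other day. Both were named for their small adjusted p in this comparison, so this separation adds no further support. After the GC correction the log2 fold changes were 3.05 for Slc2a1, 1.76 for Slc2a3, 1.81 for Hk2, 3.49 for Pfkfb3 and -2.60 for Tigar.

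**Figure D4:**
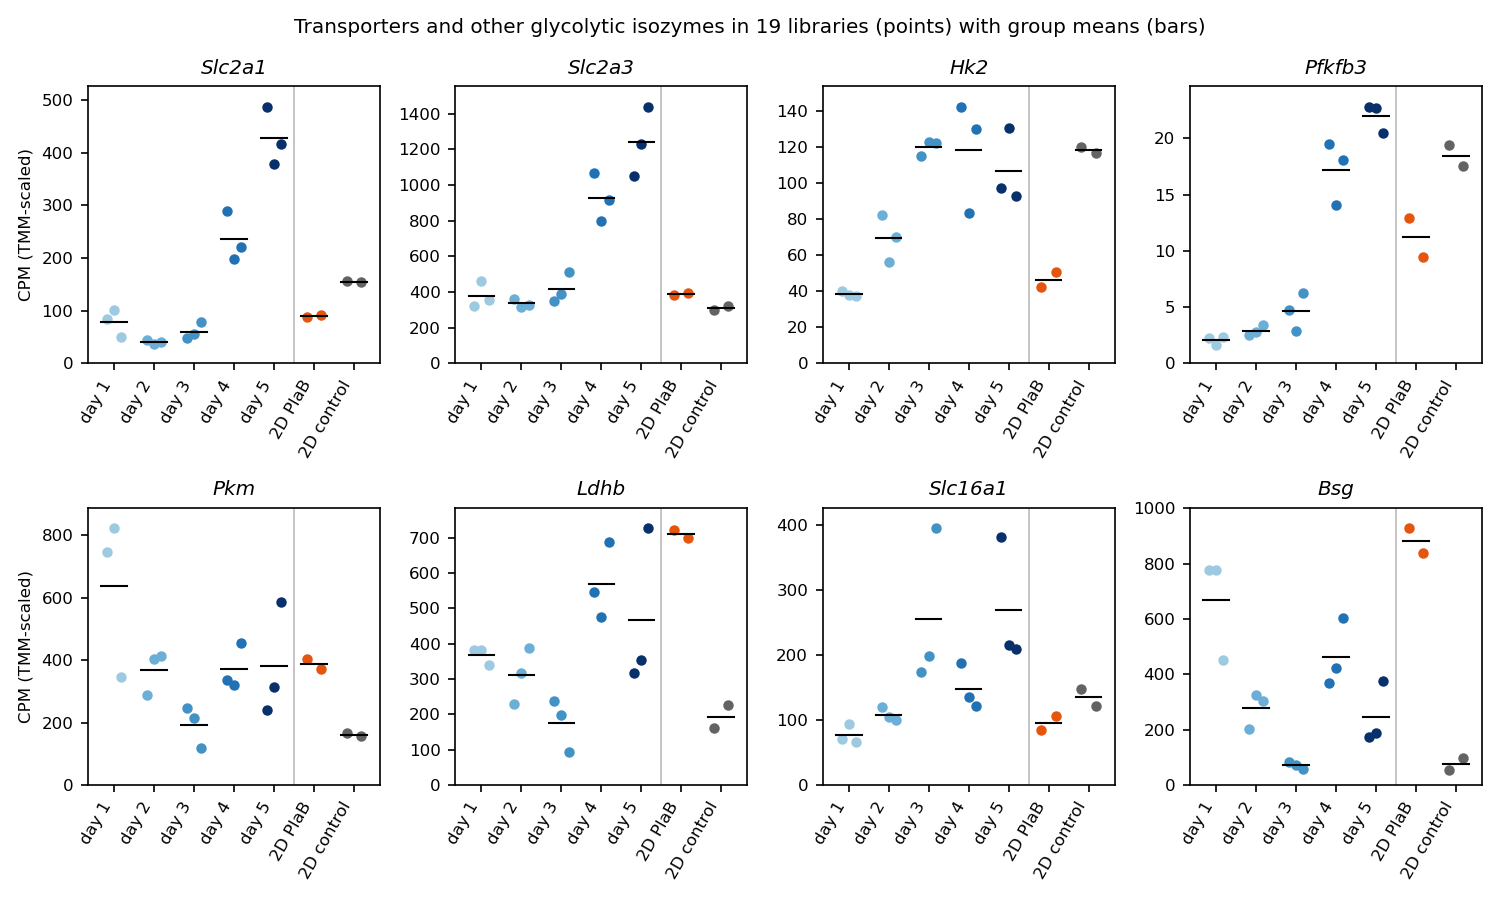
TMM-scaled CPM of 8 glucose and lactate transport genes and other glycolytic isozymes in the 19 libraries (points) with group means (bars), for blastoid days 1 to 5, PlaB-treated 2D cells and control 2D cells, each panel with its own axis from 0. Slc2a1 reaches 378 to 487 CPM on day 5, and Bsg stands at 928.5 and 837 CPM in PlaB cells against 54.5 and 98.0 CPM in control cells.

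At the exit of the pathway, Slc16a1 rose by 1.87 ± 0.30 on day 5 against day 1 (adjusted p = 4.74e-05), while Bsg fell to 172, 189 and 376 CPM on day 5, against 778, 775 and 449.9 CPM on day 1 (-1.38 ± 0.30, adjusted p = 0.000809). Bsg was not called once the GC trend was removed (-0.50, adjusted p = 0.0797). Pdk1, the kinase that switches off pyruvate dehydrogenase, rose by 1.47 ± 0.19 (adjusted p = 3.73e-06), as did Mpc2, part of the mitochondrial pyruvate carrier (1.35 ± 0.25), Dld (2.02 times its day 1 level) and Pdhb (0.74 ± 0.22). Pdk1 averaged 138.7 CPM on day 3 and 163.3 CPM on day 4, above its day 5 mean of 119.8 CPM. Slc16a1 averaged 256.1, 148.2 and 268.9 CPM on days 3, 4 and 5. Mpc2, Dld and Pdhb had their highest means on day 5. The call of Dld was lost with the GC trend removed (0.47, adjusted p = 0.0581). Pkm (-0.69, adjusted p = 0.0969), Ldhb (0.40, adjusted p = 0.301), Pfkm (-0.29), Eno2 (-0.11) and Hk1 (0.45) did not pass, and Aldoc rose by 2.21 ± 0.41 (adjusted p = 0.000169). In all, 4 of 18 other isozymes and phosphofructokinase regulators were higher on day 5 and 4 lower, and 3 of 6 transport genes were higher and 2 lower. Over all genes 25.5% were higher, 25.5% lower and 51.0% called either way. With the GC trend removed the isozymes stood at 5 higher and 5 lower and the transport genes at 4 higher and 0 lower. Of all 15121 genes, 3791 were then called higher and 3678 lower.

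In day 5 against day 1 the other branches are read beside 25.5% of all genes higher, 25.5% lower and 51.0% called either way. Of 10 pentose phosphate genes 7 were lower and 2 higher, with Pgls, the lactonase of that pathway, at -4.16 ± 0.33 (adjusted p = 2.31e-08) and G6pdx, its entry dehydrogenase, at -2.07 ± 0.30 (adjusted p = 1.44e-05). Rpia, the ribose 5-phosphate isomerase, rose by 3.01 ± 0.49. Of 18 citric acid cycle genes 7 were lower and 3 higher, and of 5 serine branch genes 3 were lower and 0 higher. Of 8 regulators 5 were higher and 0 lower, among them Egln1 (3.20 ± 0.29), Egln3 (2.23 ± 0.23), Vhl (1.45 ± 0.23) and Hif1a (1.01 ± 0.27). Of 13 genes of pyruvate entry 5 were higher and 1 lower. Of 10 gluconeogenesis and glycogen genes 4 were higher and 3 lower, led by the glycogen phosphorylase Pygl (2.80 ± 0.28). The calls in the citric acid cycle (10 of 18), among the genes of pyruvate entry (6 of 13) and among the isozymes (8 of 18) were near the share of all genes, and no difference between branches was tested. With the GC trend removed, 3791 of all 15121 genes were called higher and 3678 lower. In that fit 8 pentose phosphate genes were lower and 2 higher, and 5 citric acid cycle genes lower and 2 higher. The regulators stood at 4 higher and 0 lower, pyruvate entry at 4 higher and 2 lower, and gluconeogenesis and glycogen at 5 higher and 3 lower. Of the serine branch 1 gene was then lower and 1 higher, as Phgdh (-0.49, adjusted p = 0.217) and Shmt2 (-0.11, adjusted p = 0.767) were no longer called. Of the trophectoderm markers 7 of 8 were higher on day 5, with a summed level of 1052 to 2060 CPM on day 5 and 308 to 476 CPM on day 1. The keratins Krt18 (877 CPM) and Krt8 (338 CPM) gave most of the mean day 5 sum (1493 CPM). Eomes averaged 2.6 CPM on day 5 and 4.34 CPM on day 1. Cdx2 (0.0692 CPM on day 5) and Elf5 (0.83 CPM) had too few counts to be tested. Of the fibroblast markers 13 of 16 were lower, with a summed level of 98.7 to 108 CPM on day 5 and 450.0 to 747 CPM on day 1. Dcn was the largest part of the day 1 sum, with means of 308 CPM on day 1 and 13.5 CPM on day 5. Of the stem cell markers 6 of 12 were lower and 1 higher, with a summed level of 4907 to 9192 CPM on day 5 and 5623 to 7119 CPM on day 1. Dppa5a gave most of this sum, with means of 6410 CPM on day 5 and 4360 CPM on day 1, so the sum mainly follows this gene. The part of the 3 marker lists in these changes was not tested.

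Some counts may hold reads of other genes. Copies of Aldoa, Gapdh, Ldha, Pgam1 and Pgk1 had at most 242 counts over the 19 libraries (the Pgam1 copy Pgam1-ps2, beside 18743 for Pgam1). Pfkp overlaps the antisense gene Pitrm1 over 748 bp. Pitrm1 had 7007 counts over the 19 libraries, beside 8318 for Pfkp (84.2%), and because the strand setting of the counting is not given in the sources used here, reads there cannot be told apart and the values of Pfkp are uncertain to that extent. Shorter or longer overlaps on the opposite strand exist for Gpi1 (5482 bp), Aldoa (3084 bp), Gapdh (68 bp) and Tpi1 (34 bp), where the other gene had at most 2.64% of the enzyme's counts.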

How the data were processed

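The authors deposited 2 tables of raw counts of reads per gene symbol, 1 for 2D culture and 1 for blastoids. Per the submitters' processing notes, STAR 2.7.10b, HTSeq 0.13.5 and the mouse build mm10 were used. The annotation release and the strand setting were not given in the sources used. From these counts, 3 fits were made with edgeR 4.0.16 (R 4.3.3): 4 libraries in 2D, 15 blastoid libraries, and all 19 jointly for day 1 against 2D PlaB. Genes were kept by filterByExpr (minimum count 10, minimum total 15) and scaled by TMM. The robust quasi-likelihood F-test was used, with Benjamini-Hochberg adjustment over all tested genes and a threshold of 0.05. The GC correction was an offset from a loess trend (span 0.5) of each library's log2 levels on transcript GC content (GENCODE M21, GRCm38), and CPM are TMM-scaled over all 19 libraries. The code was tested on simulated data.

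The enzymes were given as a list. The 9 lists of other sugar metabolism genes and 4 marker lists, and the tests, were chosen with earlier results of these data known. Other genes are named by a fixed rule: in PlaB against control and in day 5 against day 1, up to 4 called genes per list, those of smallest adjusted p, 11 isozymes and transporters in every case, and the 5 genes most like the mean profile. Alternatives were RLE size factors, library totals, no filter, a replicate block, the GC correction, DESeq2 1.42.0 and leaving out each library. The labels give same-numbered libraries nothing in common beyond the number.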

Additional observations from a re-analysis of the deposited data

How the results depend on the processing

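Of 490 recomputed fold changes of the enzymes under other scalings, filters, models and the GC correction, 408 kept their direction and their side of the threshold, 36 lost a call, 15 gained one and 31 changed sign. Leaving out single libraries gave 904 of 980 unchanged in this sense, with 49 calls lost, 8 gained and 19 changes of sign. Each library of a fit was left out in turn, also those outside the groups compared. Such libraries enter only through the filter, the scaling and the common estimate of spread. Many of the 980 refits could therefore change little, and their number overstates how firm the fold changes are. Day 3 replicate 3 bears on most steps that use day 3, as given in the report, and the cause of the changes below was not tested. For day 1 against 2D PlaB (1 enzyme called), 2 enzymes were called with library totals and 2 with the GC correction. For day 2 against day 1 (2 called), library totals gave 4, no filter 4, the replicate block 1, the GC correction 0 and the GC correction with block 0. For day 3 against day 2 (6 called), the GC correction gave 3 with or without block. For day 5 against day 4 (2 called), RLE size factors, library totals, the block and the GC correction with block gave 1 each. There the GC correction gave 3 (3 higher, 0 lower), DESeq2 3 (2 higher, 1 lower) and no filter 2 (0 higher, 2 lower). Leaving out 1 library each gave 8 to 9 enzymes for PlaB against control, 1 to 2 for day 1 against 2D PlaB, 0 to 3 for day 2 against day 1, 3 to 6 for day 3 against day 2, 6 to 9 for day 4 against day 3, 0 to 3 for day 5 against day 4, 4 to 5 for day 5 against day 1, and 9 to 10 for any change over the days. A fit with the replicate number as a block called 9 enzymes for PlaB against control, 5 for day 3 against day 2 and 8 for day 4 against day 3. The labels state nothing that same-numbered libraries share beyond the number. The correlation of their deviations from the group means was -0.018 in 2D and -0.262 to 0.179 in blastoids. With so few libraries per group, such values cannot show whether the libraries were paired. The log2 fold changes that changed sign were, apart from Aldoa in day 1 against 2D PlaB with the GC correction, not called under the alternative, and Dld and Shmt2 lost their calls in PlaB against control. With the GC correction, and with the block added, they were in PlaB against control -0.29 and -0.26 for Hk1, -0.40 and -0.48 for Eno2, 0.16 and 0.16 for Dld and -0.10 and -0.10 for Shmt2. In day 1 against 2D PlaB they were -0.47 and -0.51 for Pfkl, -0.59 and -0.54 for Aldoa, -0.33 and -0.32 for Pgam1, -0.08 and -0.10 for Eno1, and -0.0041 for Gpi1 without the block. In day 2 against day 1 they were 0.26 and 0.25 for Eno1 and 0.05 and 0.04 for Ldha, and in day 5 against day 4 they were 0.07 and 0.07 for Pfkl, 0.49 and 0.49 for Aldoa and 0.19 and 0.19 for Eno1. In day 5 against day 1 they were 0.59 and 0.56 for Pfkl, 0.32 and 0.32 for Tpi1, 0.28 and 0.29 for Pfkm, 0.50 and 0.49 for Eno2 and 0.23 and 0.22 for Pkm. In day 1 against 2D PlaB, library totals gave 0.13 for Tpi1 and 0.01 for Ldha, and RLE size factors and DESeq2 gave -0.04 each for Pgam1. In day 5 against day 1, library totals gave -0.17 for Aldoa and -0.23 for Ldha, and no filter -0.03 and -0.09. Single libraries left out gave -0.69 to 0.97 for Eno2 in PlaB against control. In day 1 against 2D PlaB they gave -0.05 to 0.23 for Aldoa and -0.17 to 0.25 for Pgam1, in day 2 against day 1 -0.22 to 0.21 for Ldha, and in day 3 against day 2 -0.04 to 0.21 for Pfkp and -0.37 to 0.14 for Pgk1. In day 5 against day 4 they gave -0.01 to 0.51 for Gpi1 and -0.24 to 0.05 for Aldoa. In day 5 against day 1 they gave -0.03 to 0.27 for Aldoa, -0.29 to 0.01 for Tpi1, -0.34 to 0.30 for Ldha, -0.51 to 0.25 for Eno2 and -0.06 to 0.62 for Ldhb. Library totals alone put the median log2 fold change of all genes at 0.43 in day 1 against 2D PlaB, -0.17 in day 2 against day 1, -0.23 in day 5 against day 4 and -0.35 in day 5 against day 1, and values under that scaling are relative to these shifts. Low counts limit Pfkl most, with 36 counts in the control group.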
